A study of Mus musculus with 4 samples.

Results

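The 14-3-3 proteins of the mouse are encoded by 7 genes, *Ywhab* (beta), *Ywhae* (epsilon), *Ywhag* (gamma), *Ywhah* (eta), *Ywhaq* (theta), *Ywhaz* (zeta) and *Sfn* (sigma). They were taken by gene symbol, and 7 of 7 were found among the 21957 genes of the expression table. Their mRNA levels were followed in oocytes from PMSG-primed females of the B6D2F1 hybrid (C57BL/6 x DBA), 6 to 8 weeks of age. Untreated germinal vesicle (GV) oocytes were compared with oocytes cultured in M16 medium for 12 h, which were untreated (MII) or given tubastatin A (TubA) at 10 μM (TubA-10) or 20 μM (TubA-20). TubA is a small molecule inhibitor of the deacetylase HDAC6. The titles of the samples give these doses, whereas their treatment field has 20 μM at TubA-10 and 11 μM at TubA-20. RNA came from pooled oocytes, with 1 library per condition, so no difference could be set against a spread between replicates and no p-value is given. MII oocytes, which the labels call MII stage embryos, were kept if they had a polar body. The methods name no such selection for TubA-treated oocytes, which at 20 μM did not complete the first meiotic division. Maturation and time in culture cannot be told apart in a comparison with GV, nor can TubA and its solvent DMSO in a comparison with MII.

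14-3-3 proteins are small acidic proteins that pair into dimers and hold clients at sites carrying a phosphorylated serine or threonine. Binding can keep a client in the cytoplasm, block its active site or shield it from phosphatases. In oocytes arrested at the GV stage they are known for holding the phosphatase CDC25B inactive until meiosis resumes, after which CDC25B activates CDK1 with cyclin B.

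The coding sequences of the family are alike over short stretches. Shown first are the 60 aligned bases without a gap that have the most bases in common to all 7 genes. They were chosen for this likeness and do not stand for the whole alignment. These 60 bases lie in the last part of the coding sequence, were read from GRCm38 with the GENCODE M21 transcripts, and are printed 5′ to 3′ on the coding strand. Capitals mark the 36 bases that are the same in all 7 genes. The stretch crosses the junction of exons 5 and 6 in *Ywhab* and *Ywhaq* and that of exons 6 and 7 in *Ywhaz*, so the coordinates of these 3 include an intron, and it lies within exon 5 of *Ywhae*, exon 2 of *Ywhag* and *Ywhah*, and exon 1 of *Sfn*.
*Ywhab* (chr2:164016145-164016674, plus strand): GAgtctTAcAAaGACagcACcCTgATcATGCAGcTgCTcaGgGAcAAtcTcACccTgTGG
*Ywhae* (chr11:75759347-75759406, plus strand): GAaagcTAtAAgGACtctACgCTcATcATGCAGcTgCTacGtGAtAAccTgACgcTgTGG
*Ywhag* (chr5:135911040-135911099, minus strand): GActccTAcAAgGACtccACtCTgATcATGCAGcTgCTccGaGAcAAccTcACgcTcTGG
*Ywhah* (chr5:33027094-33027153, plus strand): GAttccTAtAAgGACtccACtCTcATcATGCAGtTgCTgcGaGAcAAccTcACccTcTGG
*Ywhaq* (chr12:21391410-21395018, minus strand): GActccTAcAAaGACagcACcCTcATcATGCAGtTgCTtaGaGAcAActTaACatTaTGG
*Ywhaz* (chr15:36772772-36775292, minus strand): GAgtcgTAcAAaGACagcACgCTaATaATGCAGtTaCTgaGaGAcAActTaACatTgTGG
*Sfn* (chr4:133601080-133601139, minus strand): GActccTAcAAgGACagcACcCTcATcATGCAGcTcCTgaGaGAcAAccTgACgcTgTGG

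Over the whole alignment, 298 of 726 columns without a gap (41.0%) held the same base in all 7 genes. *Ywhag* and *Ywhah* were the closest pair, at 78.8% identity of aligned coding bases, and shared a run of 30 bases, the longest between any 2 members and shorter than a sequenced read. *Ywhab* and *Ywhaz* followed at 75.1%, *Ywhaq* and *Ywhaz* at 74.1%, and *Ywhab* and *Ywhaq* at 73.6%. *Ywhae* was the most distant member, with 60.2% to 63.8% identity to the other genes. For *Ywhaq* the annotation also names processed copies of its mRNA. Copies were looked for by symbol only, so unnamed copies of any member were not searched for. The pseudogene *Ywhaq-ps3* (chr4:70248636-70249373) matched the 738 coding bases of *Ywhaq* at 99.6%, with an unbroken run of 404 bases, and *Ywhaq-ps2* matched 640 bases at 96.4%. Neither pseudogene has an entry in the table. The value of *Ywhaq* is therefore uncertain by whatever share of its fragments was placed on, or came from, these copies.

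**Figure D1:**
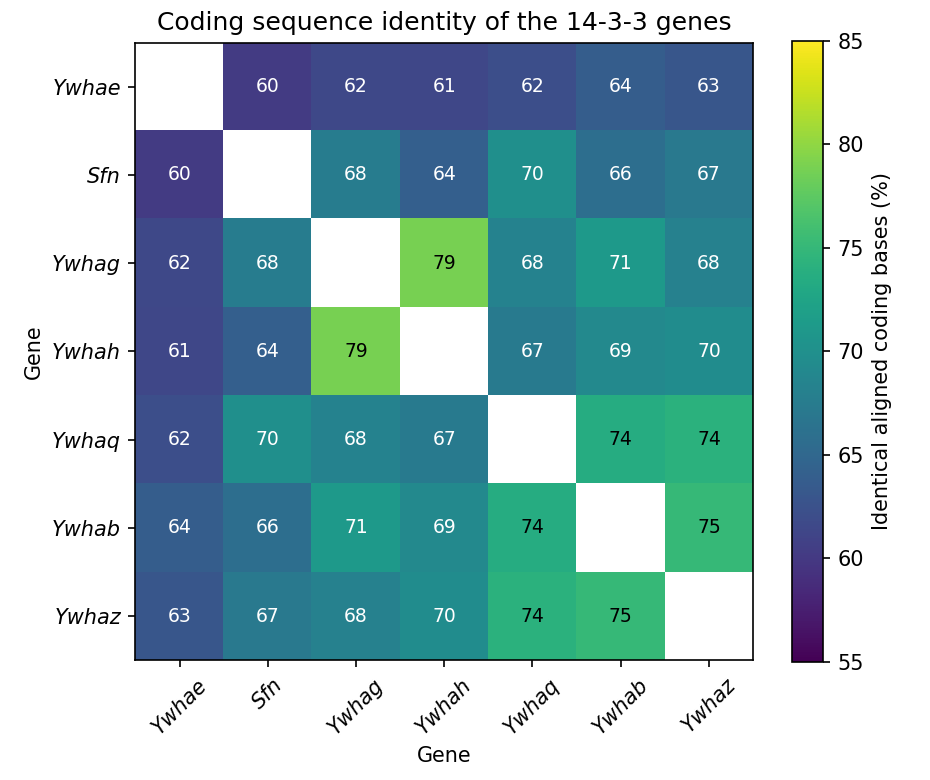
Identity of aligned coding bases (%) for each pair of the 7 14-3-3 genes, with both axes listing genes. The *Ywhag* and *Ywhah* pair stands highest at 78.8%, and the column of *Ywhae* runs from 60.2% to 63.8%.

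The deposited FPKM values summed to between 568331 and 627340 per library. Judged from the steps between low values, TubA-10 and MII were the deepest libraries, at 1.68 and 1.63 times GV. The same estimate was 0.896 for TubA-20. These 3 estimates rest on 8.21%, 6.91% and 26.9% of the low genes. The read totals printed by the study put TubA-20 above GV, so the order of GV and TubA-20 is not settled. The 9193 genes that reached 1 FPKM in each of the 4 libraries had a median log2 change from GV of 0.14 (TubA-10), 0.13 (MII) and 0.19 (TubA-20), and measured from the median gene each change against GV below shifts down by that amount, which makes rises smaller and falls larger. All 14 oocyte markers had at least 1 FPKM in every library. Of 16 cumulus and granulosa markers, 3 to 5 did, with a summed level of 22.0 to 28.6 FPKM and the defining gene *Foxl2* at 0 throughout, and none of 9 blood and immune markers did. The levels of the oocyte markers moved both ways in TubA-20 against GV, with log2 changes from -1.36 (*Zp2*) to 1.20 (*Oosp1*). *Inha*, a granulosa marker, was 7.50 FPKM in GV and 0.239 to 0.314 FPKM in the other 3 libraries. Further markers of the list were also lower, such as *Hsd17b1*, with 1.57 FPKM (GV) against 0.568 (TubA-20), and *Inhba*, with 0.956 against 0. Others of the list went the other way, such as *Cyp19a1*, with 6.14 FPKM (GV) against 10.3 (TubA-20), *Tnfaip6*, with 0 against 1.57, and *Ptx3*, with 0 against 1.19. *Nr5a2* was near level, with 9.23 against 9.12. The part of such transcripts in the changes against GV was not tested. RNA was selected with oligo(dT). A lower FPKM of a gene in pooled oocytes thus cannot be told apart from a rise of other mRNAs, nor from loss of its poly(A) tail. Likewise, a higher FPKM cannot be told apart from loss of other mRNAs, nor from a longer poly(A) tail. The words rise, gain and fall below refer to FPKM.

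FPKM is divided by transcript length, so levels of different members are set side by side here. Length division does not correct for fragments shared with pseudogenes, for the transcripts of a gene that were present, or for poly(A) tail length. These may differ between members, so the orders, shares and ratios of members below hold for FPKM and carry these limits. *Ywhae* had the highest level in every library and *Sfn* the lowest. In GV the order from high to low was *Ywhae*, *Ywhaz*, *Ywhag*, *Ywhaq*, *Ywhab*, *Ywhah* and *Sfn*. In MII and TubA-20 it was *Ywhae*, *Ywhaz*, *Ywhab*, *Ywhag*, *Ywhaq*, *Ywhah* and *Sfn*, and TubA-10 still had *Ywhag* above *Ywhab*. *Ywhab* thus moved past *Ywhaq* in all cultured libraries and past *Ywhag* in MII and TubA-20. With 1 library per condition, it cannot be said which neighbours in these orders differ beyond their spread.

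**Figure D2:**
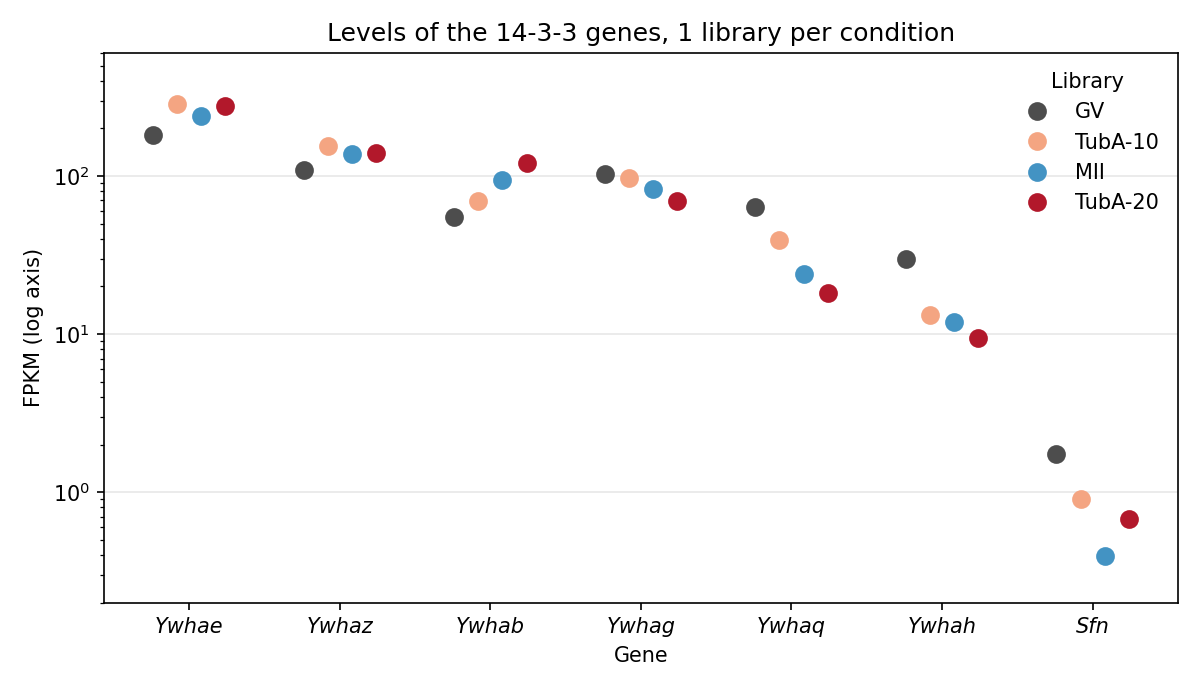
FPKM on a log axis of the 7 14-3-3 genes in the GV, TubA-10, MII and TubA-20 libraries, with 1 point per library and no error bar, as there is 1 library per condition. *Ywhab* climbs from 54.8 FPKM in GV to 121 in TubA-20, while *Ywhaq* drops from 63.8 to 18.1 and *Ywhah* from 29.8 to 9.41.

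*Ywhae* (chr11:75732869-75765845, plus strand) encodes the epsilon protein, which is known to prefer partners of other isoforms when it forms dimers. Its level was 181 FPKM in GV, 285 in TubA-10, 240 in MII and 275 in TubA-20. GV was the lowest library and both TubA libraries were above MII. The change against GV, as log2 of the ratio of FPKM + 1, was 0.65 in TubA-10, 0.41 in MII and 0.61 in TubA-20. These values stayed under 2-fold. TubA-20 differed from TubA-10 by -0.05, which became 0.08 under 1 scaling. Among all genes ranked from the highest FPKM, *Ywhae* moved from place 726 in GV to places between 366 and 442 in the cultured oocytes.

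*Ywhaz* (chr15:36770770-36796929, minus strand) encodes the zeta protein, a widely expressed isoform that binds BAD among many clients. Its level was 110 FPKM in GV, 154 in TubA-10, 139 in MII and 141 in TubA-20. As for *Ywhae* in the values as deposited, GV was the lowest library and TubA-10 the highest. The log2 changes against GV were 0.49 in TubA-10, 0.33 in MII and 0.35 in TubA-20, and MII and TubA-20 lay within 0.02 of each other, a difference whose sign depended on the scaling of the libraries.

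*Ywhab* (chr2:163994960-164018588, plus strand) encodes the beta protein, also known for binding CDC25 phosphatases. Its level was 54.8 FPKM in GV, 69.7 in TubA-10, 94.1 in MII and 121 in TubA-20. As a log2 ratio, it had the largest gain of the 7 genes in MII and TubA-20, although *Ywhae* gained more FPKM. Its rank among all genes went from 2015 in GV to 984 in TubA-20. The log2 change was 0.34 in TubA-10, 0.77 in MII and 1.12 in TubA-20, and TubA-20 was higher than TubA-10 by 0.78. Against GV it rose more than 2-fold in TubA-20 alone. With the median change set to 0 this value was 0.93, under the 2-fold threshold, and over the 4 scalings it ran from 0.93 to 1.27.

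*Ywhag* (chr5:135908409-135934616, minus strand), the gene of the gamma protein, was 103 FPKM in GV, 97.8 in TubA-10, 83.2 in MII and 69.1 in TubA-20. GV and TubA-10 were close, and TubA-20 was the lowest. The log2 changes against GV were -0.07 in TubA-10, -0.30 in MII and -0.57 in TubA-20, and none passed 2-fold. The value for TubA-10 became positive under 2 scalings, equal *Gapdh* and equal FPKM sums, at up to 0.19.

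*Ywhaq* (chr12:21390071-21417637, minus strand) encodes the theta protein, also called tau. Its level was 63.8 FPKM in GV, 39.6 in TubA-10, 24.1 in MII and 18.1 in TubA-20. Each library was lower than the one before it in that order, and the rank among all genes went from 1791 in GV to 3960 in TubA-20. *Ywhaq* fell by 1.37 on the log2 scale in MII and by 1.76 in TubA-20, both past 2-fold under each scaling tried, whereas the change in TubA-10 was -0.67. TubA-20 fell by 1.09 against TubA-10, past 2-fold, and this value was -0.96 with equal upper quartiles. MII and TubA-20 differed by 0.39, which did not pass. It is the member whose fragments the pseudogenes described above could share.

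*Ywhah* (chr5:33018816-33027966, plus strand) encodes the eta protein. Its level was 29.8 FPKM in GV, 13.3 in TubA-10, 11.9 in MII and 9.41 in TubA-20. The 3 cultured libraries lay close together and well under GV. *Ywhah* fell more than 2-fold in each of them, by 1.11 in TubA-10, 1.26 in MII and 1.57 in TubA-20. The value for TubA-10 was -0.86 with equal *Gapdh*, under the threshold, and the other scalings kept it past 2-fold. TubA-20 differed from MII by -0.31 and from TubA-10 by -0.45. *Ywhaq* and *Ywhah* thus both fell in MII, but they stood differently in TubA-10, where the log2 difference from MII was 0.14 for *Ywhah* and 0.69 for *Ywhaq*.

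*Sfn* (chr4:133600556-133602168, minus strand) encodes the sigma protein, an epithelial isoform induced by p53 that retains CDK1 with cyclin B in the cytoplasm after DNA damage. Its level was 1.74 FPKM in GV, 0.901 in TubA-10, 0.395 in MII and 0.672 in TubA-20. GV alone reached 1 FPKM. The log2 changes against GV were -0.53, -0.98 and -0.71 in TubA-10, MII and TubA-20, and they depended on the pseudocount. With 0.01 FPKM in place of 1, they were -0.94, -2.11 and -1.36. The sign was the same under all alternatives tried, but at this level the size of the change is not well determined. Of 9 epithelial markers, 4 to 6 had at least 1 FPKM per library, with a summed level of 64.4 FPKM in GV and 69.7 to 108 in the other libraries, and the keratins *Krt5*, *Krt14* and *Krt19* were at 0 throughout. *Krt8* was 10.5 FPKM in GV and 1.99 to 2.99 in the others. *Krt18* moved both ways, with 0.786 FPKM in GV, 0.0548 in TubA-10, 1.79 in MII and 0.537 in TubA-20. Others of the list went the other way from *Krt8*. *Cdh1*, the highest of the list in every library, had 39.1 FPKM (GV) against 79.2 (TubA-20). *Cldn4* had 7.20 against 15.4, *Trp63* 5.84 against 8.36, and *Epcam* 0.972 against 2.35. Whether the oocytes themselves gave these transcripts was not tested. The part of such transcripts in the level of *Sfn* was not tested.

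The members were then counted against all genes that reached 1 FPKM in either library of a pair. In MII against GV, 0 of 7 members were more than 2-fold higher and 2 (*Ywhah*, *Ywhaq*) lower, where 6.28% of 10661 genes were higher and 17.2% lower. The median change of the members was -0.30, beside 0.04 for all genes, whose quartiles were -0.68 and 0.57. With at least 5 FPKM required, which leaves out *Sfn*, the member median turned to 0.0169. In TubA-10 against GV, 0 of 7 were higher and 1 (*Ywhah*) lower, where 1.53% and 11.6% of 10631 genes were, and the medians were -0.07 and 0.08, the former turning to 0.14 without *Sfn*. In TubA-20 against GV, 1 of 7 (*Ywhab*) was higher and 2 (*Ywhah*, *Ywhaq*) lower, where 15.5% and 23.9% of 10760 genes were, and the medians were -0.57 and 0.08, the former being -0.11 without *Sfn*. The medians of so few genes thus rest on the member with the lowest level. With so few members, these counts are near what the background shares give, and the comparisons share the GV library. With a pseudocount of 0.1 or 0.01 FPKM, *Sfn* also passed 2-fold downward in MII and in TubA-20, which made 3 members lower in each. In MII it did so with the median change set to 0 as well.

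Between the cultured libraries 1 member, *Ywhaq*, passed 2-fold, in 1 of 3 comparisons. In TubA-10 against MII, 0 of 6 members tested passed 2-fold in either direction, where 1.1% of 10315 genes were higher and 0.271% lower, and the member values ran from -0.43 for *Ywhab* to 0.69 for *Ywhaq*. In TubA-20 against MII, 0 of 6 passed as well, where 0.7% of 10280 genes were higher and 5.21% lower, and the member values ran from -0.39 for *Ywhaq* to 0.35 for *Ywhab*. In TubA-20 against TubA-10, 0 of 6 were higher and 1 (*Ywhaq*) was lower, where 1.4% and 11.7% of 10376 genes were. *Sfn*, under 1 FPKM in all 3 libraries, was not among the 6. In the order GV, TubA-10, MII, TubA-20, which was noticed after the values had been seen, *Ywhab* increased and *Ywhag*, *Ywhaq* and *Ywhah* decreased at every step. These are 4 of 7 members, where 46.9% of 10898 genes followed this order in 1 direction or the other, so the order is common in these libraries. With equal FPKM sums or equal *Gapdh*, *Ywhag* was higher in TubA-10 than in GV and left this order.

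**Figure D3:**
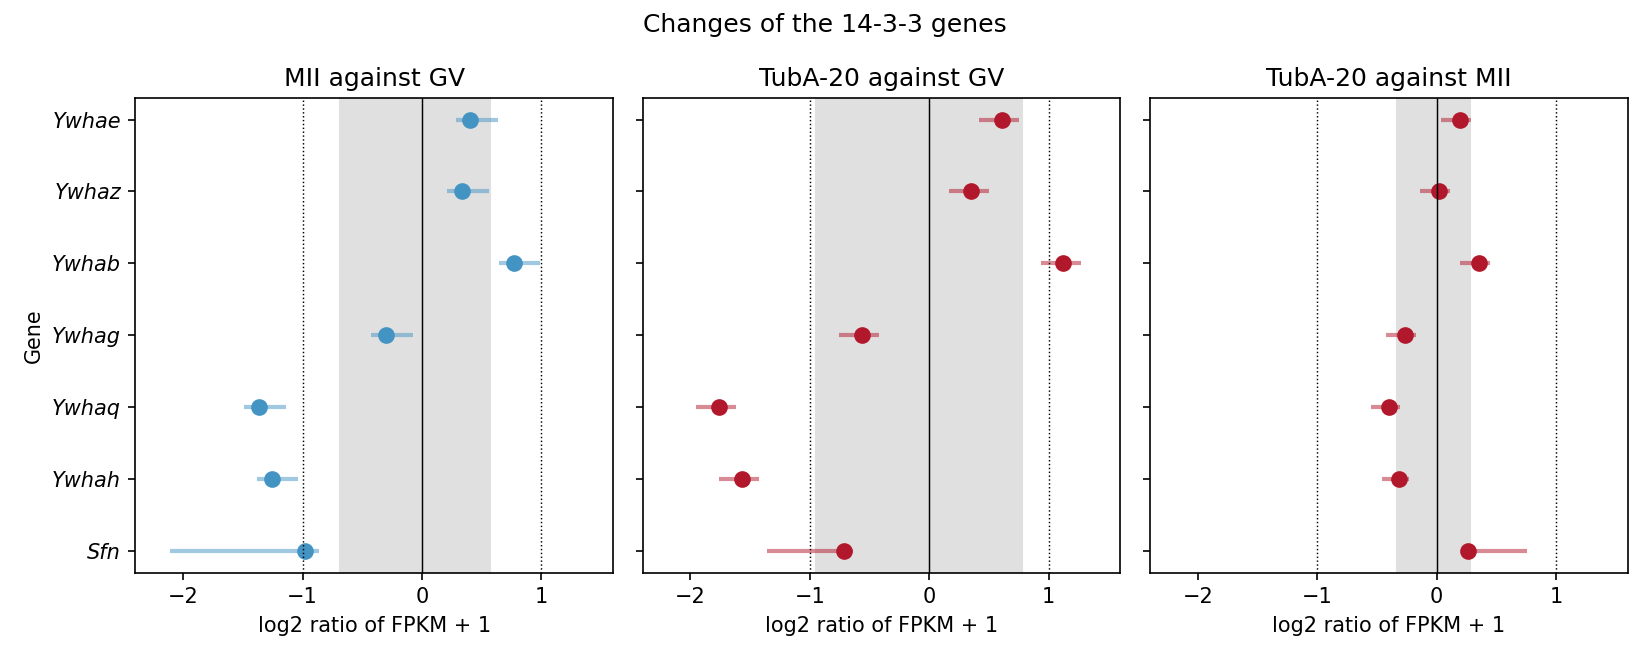
Log2 ratio of FPKM + 1 of the 7 14-3-3 genes in MII against GV, TubA-20 against GV and TubA-20 against MII. Points are the values as deposited, horizontal bars span the alternative pseudocounts, scalings and handling of shared symbols, grey bands are the quartiles of all genes tested (in MII against GV from -0.68 to 0.57) and dotted lines are 2-fold. *Ywhaq* and *Ywhah* lie past 2-fold below GV in both cultured libraries shown, whereas no point passes it between TubA-20 and MII, where the bar of *Ywhaz* crosses 0.

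The summed level of the 7 genes was 543 FPKM in GV, 661 in TubA-10, 592 in MII and 634 in TubA-20, a log2 change against GV of 0.28, 0.12 and 0.22. Over the 4 scalings these changes ran from 0.14 to 0.55 in TubA-10, -0.001 to 0.35 in MII and 0.03 to 0.37 in TubA-20. The make-up of this sum is the same under any scaling of the libraries, since all members of a library are scaled alike. *Ywhae* made up 33.2% of it in GV, 43.1% in TubA-10, 40.5% in MII and 43.4% in TubA-20. *Ywhaz* stayed between 20.2% and 23.4%, but of the sum without *Ywhae* it made up 30.3% in GV and 41.1%, 39.3% and 39.2% in TubA-10, MII and TubA-20. *Ywhab* was 10.1% in GV, 10.5% in TubA-10, 15.9% in MII and 19.0% in TubA-20, so its gain in share was small in TubA-10. Of the sum without *Ywhae* it made up 15.1% in GV, 18.5% in TubA-10, 26.7% in MII and 33.6% in TubA-20. *Ywhag* went the other way, at 18.9%, 14.8%, 14.05% and 10.9%.

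*Ywhaq* took 11.7% of the sum in GV, 6.00% in TubA-10, 4.08% in MII and 2.86% in TubA-20, and *Ywhah* took 5.49%, 2.01%, 2.01% and 1.48%. *Sfn* had at most 0.321%, in GV. Together *Ywhab*, *Ywhae* and *Ywhaz* held 63.5% of the summed FPKM in GV, 77.1% in TubA-10, 79.8% in MII and 84.7% in TubA-20. The ratio of *Ywhab* to *Ywhaq* within a library was 0.859 in GV, 1.76 in TubA-10, 3.90 in MII and 6.65 in TubA-20, so the 2 genes were near equal in GV and well apart in TubA-20. The ratio of *Ywhae* to *Ywhah* was 6.05 in GV and 21.5, 20.1 and 29.3 in TubA-10, MII and TubA-20. Here TubA-10 and MII were alike, unlike for *Ywhab* to *Ywhaq*. The ratio of *Ywhaz* to *Ywhag* ran over a smaller span, from 1.07 in GV to 1.58, 1.67 and 2.04. Each of these ratios sets a member that rose against one that fell. Between members that rose, *Ywhae* to *Ywhaz* was 1.65 in GV, 1.84 in TubA-10, 1.73 in MII and 1.96 in TubA-20. *Ywhab* to *Ywhaz* was 0.500, 0.451, 0.679 and 0.858 in the same order.

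**Figure D4:**
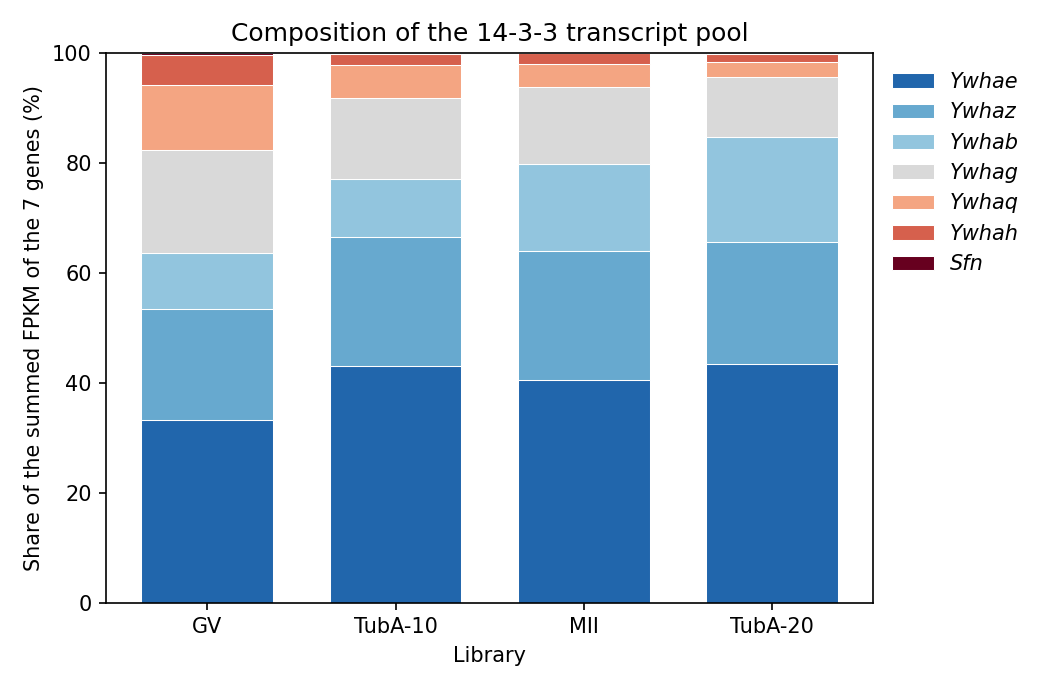
Share (%) of each 14-3-3 gene in their summed FPKM, as stacked bars for the GV, TubA-10, MII and TubA-20 libraries, 1 library each. The blue segments of *Ywhae*, *Ywhaz* and *Ywhab* grow from 63.5% in GV to 84.7% in TubA-20, and the orange and red segments of *Ywhaq* and *Ywhah* shrink.

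The 3′ ends of 6 members are shown because cytoplasmic lengthening and shortening of poly(A) tails, steered by motifs near the 3′ end, act on stored mRNAs of maturing oocytes and bear on what oligo(dT) selection recovers. The cytoplasmic polyadenylation element is known in forms such as TTTTAT and TTTTAAT (written as DNA), and the polyadenylation signal as AATAAA or ATTAAA. The last 30 bases of the principal transcript of 6 members are given 5′ to 3′ from GRCm38, with complete polyadenylation signals and TTTTAT in capitals.
*Ywhab* (chr2:164018559-164018588, plus strand): ttaaagtgaAATAAAacaTTTTATcagtta
*Ywhae* (chr11:75765816-75765845, plus strand): atcATTAAAgtacaacagtcatttaacaca
*Ywhag* (chr5:135908409-135908438, minus strand): acattgagcaaAATAAActtacagatctga
*Ywhah* (chr5:33027937-33027966, plus strand): gagtaAATAAAtgctgctttagggatatta
*Ywhaz* (chr15:36770770-36770799, minus strand): gtaaatgctcAATAAAtattgatgatggga
*Sfn* (chr4:133600556-133600585, minus strand): accactcAATAAAgttgccctgtgacactc

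The last polyadenylation signal was ATTAAA in *Ywhae* and AATAAA in the other 5 members shown, letters found in the last 200 bases of 25.5% and 67.6% of 17090 genes. Searched on the transcript strand over the last 200 bases, TTTTAT occurred in *Ywhab*, starting 12 bases from the end, and in *Ywhae*, starting 173 bases from the end, and TTTTAAT in none of these 6. These letters overlap no polyadenylation signal in *Ywhab*. Of all genes, 22.8% held TTTTAT, 8.30% TTTTAAT and 28.5% either. Both genes had higher levels in all cultured libraries than in GV, but so did *Ywhaz*, which held neither motif in this window. The choice of transcript matters here. *Ywhaz* has 2 other principal transcripts with earlier ends, whose last 200 bases hold TTTTAT and, in 1 of them, also TTTTAAT. A member with lower levels in culture also has such a transcript holding TTTTAT, so neither statement on motifs and levels is independent of this choice. A match is a run of letters and was not tested as a site. The 3′ UTR was 1863 bases long in *Ywhab*, 1173 in *Ywhae*, 2586 in *Ywhag*, 771 in *Ywhah*, 1285 in *Ywhaq*, 1948 in *Ywhaz* and 467 in *Sfn*, beside a median of 850 bases over all genes.

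For each member with at least 5 FPKM, the genes with the most similar pattern were sought among 7896 genes, by the Euclidean distance between the 3 log2 changes against GV. *Cdc34*, a ubiquitin-conjugating enzyme, lay 0.03 from *Ywhab*, with 107, 138, 182 and 232 FPKM in GV, TubA-10, MII and TubA-20, and *Syt11* lay 0.04 from it. *Ppp1r10* lay 0.01 and *Fbxw19* 0.04 from *Ywhaz*, and *Tmem14a* and *Tdp1* were the nearest to *Ywhae*. The nearest to *Ywhag* were *Dppa2* and *Stmn1*, to *Ywhah* *Rpl15* and *Ddx25*, and to *Ywhaq* *Endog* and *Tmem38a*. Within a distance of 0.25 there were 323 genes (4.09%) for *Ywhab*, 218 (2.76%) for *Ywhaz* and 160 (2.03%) for *Ywhae*. The numbers were 103 (1.30%) for *Ywhag*, 65 (0.823%) for *Ywhah* and 44 (0.557%) for *Ywhaq*. The 2 members that fell most had the fewest neighbours. Neighbours were not counted for other genes with falls of like size, so this cannot be called particular to these members.

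The genes that 14-3-3 proteins work with were described next, in 7 lists of 97 genes for their clients, for kinases that phosphorylate the docking sites and for phosphatases. In MII against GV, 3 of 82 genes tested were more than 2-fold higher and 5 lower, where 6.28% of all genes were higher and 17.2% lower, with a median change of 0.15 beside 0.04 for all genes. In TubA-20 against GV, 11 of 83 were higher and 12 lower, where 15.5% and 23.9% of all genes were, with a median of 0.43 beside 0.08. In TubA-20 against MII, 0 of 81 were higher and 2 lower, where 0.7% and 5.21% were, with a median of 0.00 beside 0.01. These counts move with the scaling of the libraries and with the pseudocount. With equal *Gapdh*, 9 were higher in MII against GV. With a pseudocount of 0.1 FPKM, 9 were lower in MII against GV and 7 in TubA-20 against MII. The shares of all genes hold for the values as deposited with 1 FPKM added, so these alternative counts cannot be set against them. The counts for single lists below are to be read beside the same shares of all genes, and no list was tested.

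The list of 12 cell cycle and meiotic clients had 2 genes higher and 0 lower in MII, and 4 higher and 2 lower in TubA-20, where all genes had 6.28% higher and 17.2% lower in MII and 15.5% and 23.9% in TubA-20. *Mdm4*, an inhibitor of p53, was 992 FPKM in GV, 1722 in TubA-10, 2172 in MII and 2688 in TubA-20, and rose by 1.13 in MII and 1.44 in TubA-20. *Ppp1r12a*, the targeting subunit of myosin phosphatase, was 74.6, 135, 197 and 190 FPKM and rose by 1.39 in MII and 1.33 in TubA-20. *Cdc25b*, the client held by 14-3-3 in GV arrest, was 11.2 FPKM in GV, 14.5 in TubA-10, 17.7 in MII and 6.62 in TubA-20. It was highest in MII and lowest in TubA-20, where it fell by 1.30 against MII, whereas against GV its changes of 0.62 in MII and -0.67 in TubA-20 did not pass 2-fold. The other gene past 2-fold in that comparison, chosen here after its values were seen, was *Cdc25c*, at 7.53, 8.12, 4.34 and 1.62 FPKM in GV, TubA-10, MII and TubA-20. These are 2 of 12 genes of the list, where 5.21% of all genes were lower. *Cdc25c* was just past 2-fold, at -1.02, and with equal upper quartiles or with at least 5 FPKM required *Cdc25b* was the 1 gene lower.

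Of 9 MAP kinase pathway clients tested, 0 were higher and 1 lower in MII, and 1 was higher and 1 lower in TubA-20, beside all-gene shares of 6.28% and 17.2% in MII and of 15.5% and 23.9% in TubA-20. *Ksr1*, a scaffold protein of the pathway, was 32.9 FPKM in GV, 9.38 in TubA-10, 8.46 in MII and 3.96 in TubA-20. It fell by 1.84 in MII and fell by 2.78 in TubA-20, and was the 1 lower gene in both. Of 12 transcription factor, coactivator and class IIa HDAC clients tested, 1 was higher in MII, 2 in TubA-20, and 0 lower in either, beside the same shares.

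Of 11 insulin, mTOR, AMPK and cell death clients tested, 0 were higher, and 2 were lower in MII and 3 in TubA-20, near the 17.2% and 23.9% of all genes that were lower. *Bax*, which promotes cell death at mitochondria, was 68.7 FPKM in GV, 24.0 in TubA-10, 17.5 in MII and 20.2 in TubA-20, and fell by 1.92 in MII and fell by 1.72 in TubA-20. *Akt1s1*, an inhibitor of mTOR complex 1, was 23.5, 11.1, 8.30 and 7.02 FPKM and fell by 1.40 in MII and fell by 1.61 in TubA-20. Of 6 mRNA decay and translation clients tested, 0 passed 2-fold in MII and 1 was lower in TubA-20.

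Among the kinases that phosphorylate docking sites, 0 of 22 tested were higher and 1 lower in MII, and 3 of 23 were higher and 2 lower in TubA-20, beside 6.28% and 17.2% of all genes in MII and 15.5% and 23.9% in TubA-20. *Akt1* was 21.6 FPKM in GV, 33.2 in TubA-10, 39.0 in MII and 58.3 in TubA-20, and rose by 1.39 in TubA-20, as did *Pim1*, by 1.45, from 3.09 FPKM in GV to 10.2. *Prkaa1*, a catalytic subunit of AMPK, was 14.9, 5.28, 4.37 and 3.03 FPKM and fell by 1.56 in MII and fell by 1.98 in TubA-20. Of 10 phosphatase genes, 0 were higher and 1 lower in MII, and 1 was higher and 3 lower in TubA-20, beside the same shares. The regulatory subunit *Ppp2r5d* of PP2A, at 21.1, 11.2, 8.87 and 4.27 FPKM, fell by 1.16 in MII and fell by 2.07 in TubA-20. With equal *Gapdh* its value in MII was -0.95, under the threshold.

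**Figure D5:**
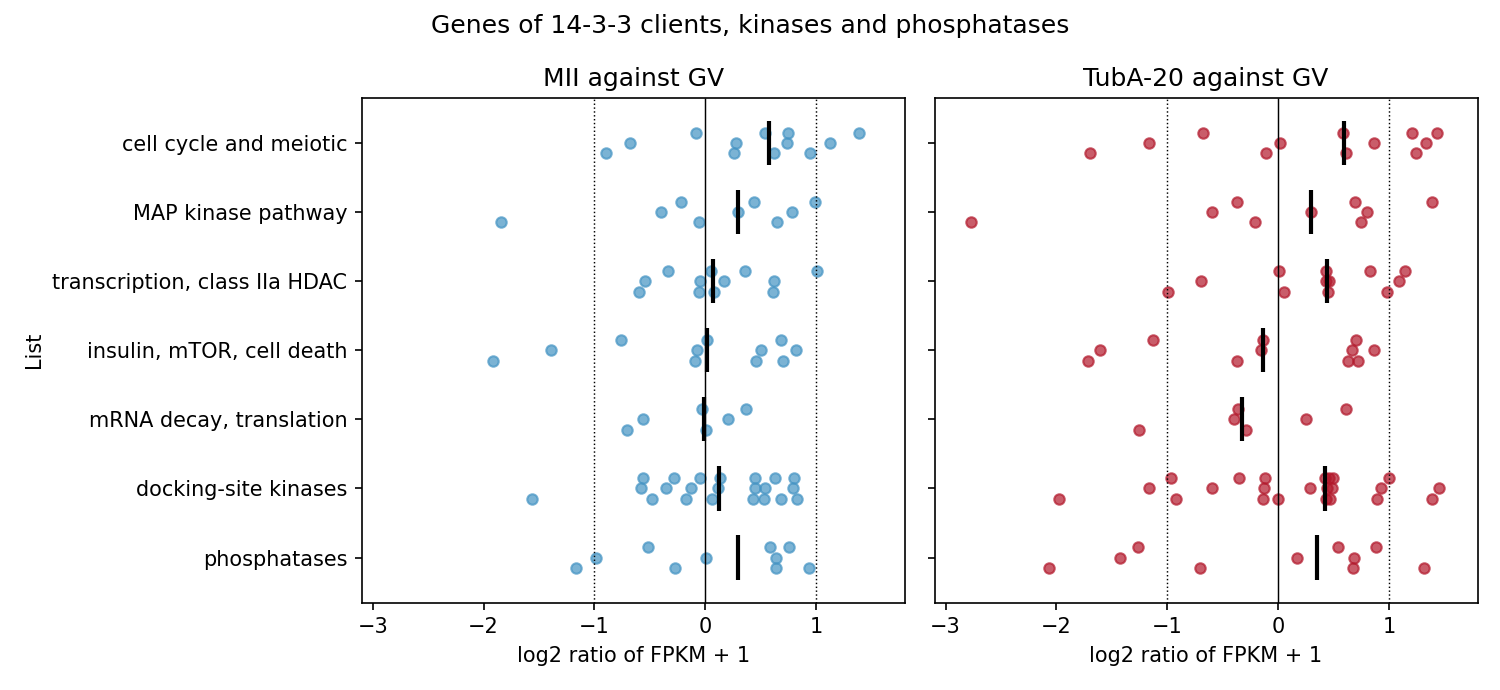
Log2 ratio of FPKM + 1 of the partner genes tested, by list, in MII against GV and in TubA-20 against GV. Each point is 1 gene, black bars are list medians (0.58 and 0.60 for cell cycle and meiotic clients) and dotted lines are 2-fold. More points lie past 2-fold in TubA-20 (11 higher, 12 lower) than in MII (3 higher, 5 lower), as was so for all genes. Of all genes, 15.5% were higher and 23.9% lower in TubA-20, and 6.28% and 17.2% in MII.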

How the data were processed

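Libraries were made by a sequencing company from pooled oocytes with a stranded oligo(dT) protocol. According to the submitters' processing notes STAR 2.5.0, Cufflinks and Cuffdiff 2.2.1 were used on mm10. The authors deposited FPKM values (fragments scaled by transcript length and by mapped fragments), which cufflinks estimated with its strand-specific option. Their methods name a UCSC gene model, whereas the entries carry Ensembl identifiers. Read counts were not used here. Symbols were given by identifier from GENCODE M21 (GRCm38) to 21794 of 21959 entries, and entries sharing a symbol were summed.

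Changes were computed as log2 of the ratio of FPKM + 1 for 6 comparisons, with a threshold of 2-fold, over genes that reached 1 FPKM in either library. The small pseudocount understates changes of low genes. No test was possible with 1 library per condition. Relative depth was estimated from ratios of FPKM between 0.001 and 0.15, where 6.91% to 26.9% of low genes lay within 0.03 log2 of the step. Coding sequences were aligned with mafft 7.526.

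The members and gene lists were chosen with earlier results of these data known. Named were all members, up to 4 partner genes with at least 5 FPKM rising and 4 falling most past 2-fold in MII and TubA-20 against GV and TubA-20 against MII, and the 2 nearest genes of each member. 1 partner gene that this rule names and the 3′ end of 1 member are not reported here. Alternatives were pseudocounts of 0.1 and 0.01 FPKM, 4 scalings (median change of 0, equal FPKM sums, upper quartiles or *Gapdh*), no minimum or 5 FPKM, a 3-fold threshold, and the highest of entries sharing a symbol. The scalings of the order count and a pseudocount of 1 FPKM in the ratios were added after seeing the data. Scripts were tested on simulated data. Python 3.11.15, numpy 2.4.6, pandas 2.3.3 and matplotlib 3.10.9 were used.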

Additional observations from a re-analysis of the deposited data

How the results depend on the processing

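No paired analysis was possible because each condition had 1 library, and for the same reason no library could be left out. Of 294 values of single 14-3-3 genes under 7 alternatives each, 278 kept their direction and their side of the 2-fold threshold, 3 dropped under it, 7 passed it, and 6 took another sign while under it. None past 2-fold changed direction. The causes of the following moves were not tested, except that a stricter threshold or minimum leaves fewer genes by construction. The shares of all genes given above hold for the values as deposited, a pseudocount of 1 FPKM and the 2-fold threshold. The counts below have no such share beside them, so they cannot be set against all genes. With a 3-fold threshold, the 14-3-3 genes lower than GV numbered 0 in TubA-10, 0 in MII and 1 in TubA-20, those higher in TubA-20 numbered 0, and those lower in TubA-20 than in TubA-10 numbered 0. Partner genes past 3-fold numbered 0 higher and 2 lower in MII against GV, 0 higher and 6 lower in TubA-20 against GV, and 0 lower in TubA-20 against MII. With the median change set to 0, 0 members passed 2-fold upward in TubA-20 against GV, the summed 14-3-3 level in MII against GV was -0.00105, and the partner median in TubA-20 against MII was -0.0189. With equal FPKM sums, the member median in TubA-10 against GV was 0.00728, the summed level in TubA-20 against MII -0.0444, 6 partner genes were higher in MII than in GV, and in TubA-20 against MII 5 were lower with a median of -0.128. With equal *Gapdh*, 0 members were lower in TubA-10 than in GV and their median was 0.195, the summed level in TubA-20 against MII was -0.0604, 9 partner genes were higher in MII than in GV, and in TubA-20 against MII 5 were lower with a median of -0.143. With equal upper quartiles, the summed level in TubA-20 against TubA-10 was 0.0724, 0 members were lower there, and 1 partner gene was lower in TubA-20 than in MII. With at least 5 FPKM required, the member median was 0.0169 in MII and 0.135 in TubA-10 against GV, and 1 partner gene was lower in TubA-20 than in MII. Without a minimum, the member median in TubA-20 against MII was 0.0199. With a pseudocount of 0.1, 9 partner genes were lower in MII than in GV and 7 in TubA-20 than in MII, and with 0.01 these were 10 and 7, and 17 were higher in TubA-20 against GV. Members in the order GV, TubA-10, MII, TubA-20 numbered 3 with equal FPKM sums or equal *Gapdh*, in place of 4. The share of all genes given for this order holds for the values as deposited only. *Sfn* was under 1 FPKM in all cultured libraries, and the part of sequencing depth in its values was not tested.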
